A study of Mus musculus with 12 samples.

Results

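The mouse genes named Zfp followed by a number encode zinc finger proteins, and 138 of the 365 such genes in the deposited table were followed in irradiated MODE-K cells. They were selected on their read counts, at least 200 summed over the 12 libraries. Another 193 Zfp genes held fewer reads and 34 held none. Since the rule used the total level of each gene, levels are given as a description, while differences between groups were tested. The total takes in every group, so a gene near the limit can pass through reads of a group where it is high. At 24 h after 12 Gy, Zfp51 had 86 of its 208 reads, Zfp53 80 of 210 and Zfp988 78 of 209. For such genes selection and test are not independent. All 138 passed the filter for low counts, and 46 overlap another annotated gene. The table lists 33625 genes, of which 22036 are typed as known genes. The rest are typed as new genes or as known or new long noncoding RNA genes.

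MODE-K, written MODEK in the labels, is a single wild-type mouse line derived from the epithelium of the small intestine. Cells received gamma rays from a cobalt source, and 4 groups of 3 libraries were made: 12 Gy harvested at 48 h (12Gy_48h), 12 Gy harvested at 24 h (12Gy_24h), 4 Gy harvested at 48 h (4Gy_48h), and a control of 0 Gy harvested at 0 h. With no unirradiated cells at 24 h or 48 h in the design, radiation and time in culture cannot be told apart in a comparison with control. The labels do not say whether libraries of a group came from separate cultures, so each p-value measures only the spread between these libraries.

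C2H2 zinc finger proteins bind nucleic acids through repeated small domains that each hold a zinc ion. Those with a KRAB box recruit the corepressor Trim28, which brings the histone methyltransferase Setdb1 and heterochromatin proteins to the bound site, and they are known for silencing transposable elements. Their genes lie in tandem runs that have grown quickly in rodents. Other zinc finger proteins act outside this pathway, for example on messenger RNA decay, on stalled ribosomes or on ubiquitin chains. In the deposited annotation 85 of the 138 genes carried a KRAB entry and 53 did not. The entry rests on the KEGG column alone for 74 genes and on a Pfam KRAB box for 11. It takes in genes such as Zfp148 and Zfp91, which are not KRAB proteins, and the others of the 74 were not checked. It is used here as a label of the annotation, and a KRAB gene below means a gene with this entry.

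Library totals ran from 3616416 to 4831641 assigned reads, and a Zfp gene of median level had 369 reads over all libraries. Markers of the labelled epithelial identity were low: Epcam, Cdh1, Krt8, Krt19 and Vil1 had 0 to 2 reads in each library and Krt18 had 5 to 62, while Vim stood at 498 to 2408 CPM (read counts scaled to library size). The summed level of all 10 listed epithelial markers was 20.1 to 24.9 CPM in 12Gy_48h, 25.9 to 27.9 CPM in 12Gy_24h, 16.6 to 23.2 CPM in 4Gy_48h and 12.7 to 17.0 CPM in control. For 10 intestinal lineage markers it was 0.276 to 2.95, 1.01 to 1.85, 0.510 to 2.48 and 0.794 to 1.32 CPM in the same order. The summed level of 10 fibroblast and mesenchymal markers was 1473 to 2009.7 CPM in 12Gy_48h, 2277 to 2723 CPM in 12Gy_24h, 1241 to 1724 CPM in 4Gy_48h and 691 to 1119 CPM in control. For 8 immune markers, with Ptprc, Cd3e and Adgre1 at 0 in every library, it was 63.9 to 70.9 CPM in 12Gy_48h, 38.2 to 51.8 CPM in 12Gy_24h, 32.0 to 40.0 CPM in 4Gy_48h and 36.2 to 45.8 CPM in control. The part of these markers in the Zfp results was not tested. Loci typed as new genes held 14.7% ± 0.606 of reads in 12Gy_48h, 11.9% ± 0.0571 in 12Gy_24h, 15.8% ± 0.947 in 4Gy_48h and 21.0% ± 1.03 in control (SD, n = 3). With libraries scaled on all genes, the median known gene sat 0.20, 0.23 and 0.14 above control on the log2 scale in 12Gy_48h, 12Gy_24h and 4Gy_48h. With scaling and testing on known genes alone the same medians were 0.01, 0.00 and -0.01, and each Zfp result below is also given on that scale where the call differs. Fewer cells of a type and less RNA per cell cannot be told apart in such bulk libraries.

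Levels differed widely among the 138 genes. Per kilobase of exon, the highest mean over the 12 libraries belonged to Zfp978 with 73.7 CPM per kb, followed by Zfp593 with 34.8, Zfp598 with 28.6, Zfp706 with 23.1, Zfp972 with 19.4 and Zfp938 with 18.5 CPM per kb. The lowest was Zfp738 with 0.321 CPM per kb. Genes with a KRAB entry had a median of 2.09 CPM per kb and those without one a median of 1.71 CPM per kb. Without division by exon length the order reversed, with medians of 7.13 CPM with an entry and 8.66 CPM without one. Their median exon lengths were 4111 and 6139 bases. Whether read counts grew with exon length in these libraries was not tested. Zfp978 is a KRAB gene of distal chromosome 4 whose transcript shares 75.9% of its 50-base words with other annotated genes, so reads of its copies may be counted there. Not corrected for length, the 5 highest means were those of Zfp706 (115 CPM), Zfp598 (111 CPM), Zfp978 (94.9 CPM), Zfp330 (73.9 CPM) and Zfp593 (72.7 CPM). Zfp706, a small zinc finger protein known from the exit of mouse stem cells from self-renewal, averaged 117 ± 7.74 CPM in 12Gy_48h, 116 ± 11.7 CPM in 12Gy_24h, 113 ± 5.46 CPM in 4Gy_48h and 114 ± 28.8 CPM in control (SD, n = 3), and passed no test. Just inside the limit of 200 reads were Zfp12 and Zfp276 with 200 each and Zfp202 with 207, and just outside it were Zfp771 with 197, Zfp282 with 196 and Zfp319 with 196.

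**Figure D1:**
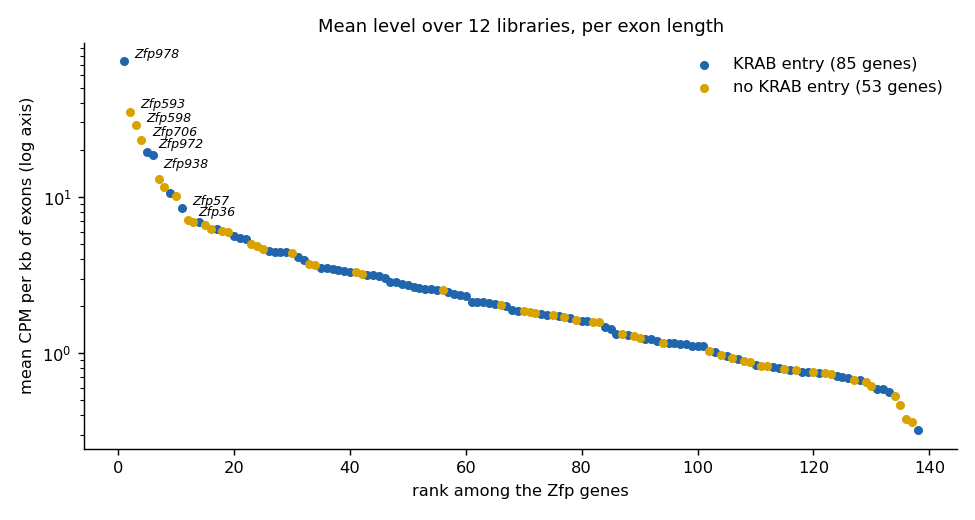
Mean level of each of the 138 Zfp genes over the 12 libraries, in CPM per kb of exons (vertical, log axis), ordered by rank (horizontal), with 85 genes with a KRAB entry in blue and 53 without one in yellow. Zfp978 stands first at 73.7 CPM per kb, and both colours are found along the whole range.

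Together the 138 genes took 2158 ± 13.4 CPM in 12Gy_48h, 1924 ± 69.0 CPM in 12Gy_24h, 1912 ± 85.1 CPM in 4Gy_48h and 1806 ± 101 CPM in control (SD, n = 3). Scaled to the reads of known genes instead (CPM of known genes) the sums were 2603 ± 32.8 in 12Gy_48h, 2232 ± 80.2 in 12Gy_24h, 2335 ± 83.3 in 4Gy_48h and 2368 ± 161 in control. By the first measure every irradiated mean was above that of control, and by the second only that of 12Gy_48h. On both measures all 12Gy_48h libraries lay above all control libraries, while the libraries of 12Gy_24h and 4Gy_48h overlapped those of control. These sums were not tested.

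Of the 138 genes, 57 passed the test in at least 1 of 5 comparisons and 81 in none (edgeR's quasi-likelihood test, Benjamini-Hochberg adjusted p under 0.05 over 15086 genes). The 57 were 41.3% of the Zfp genes, against 61.8% of all genes tested and 48.7% of known genes. In the fit to known genes alone 31.9% of the Zfp genes passed, against 36.6% of genes. Against control 43 Zfp genes (31.2%) passed in at least 1 irradiated group, against 57.6% of all genes tested and 43.2% of known genes. The fit to known genes alone called 18.8% of Zfp genes against control, and 26.9% of all its genes. Of the 43 genes, 0 rose in one group and fell in another. Zfp687 and Zfp938 rose and Zfp84 fell in all 3 irradiated groups, which share the same control libraries. The median log2 difference of the 138 genes was 0.18 in 12Gy_48h, 0.18 in 12Gy_24h and 0.05 in 4Gy_48h against control, where the median known gene stood at 0.20, 0.23 and 0.14. On the scale of known genes alone the Zfp medians were -0.00, -0.05 and -0.09. As a group the Zfp genes thus lay close to the middle of the known genes, and what follows concerns single genes and 1 chromosomal run.

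**Figure D2:**
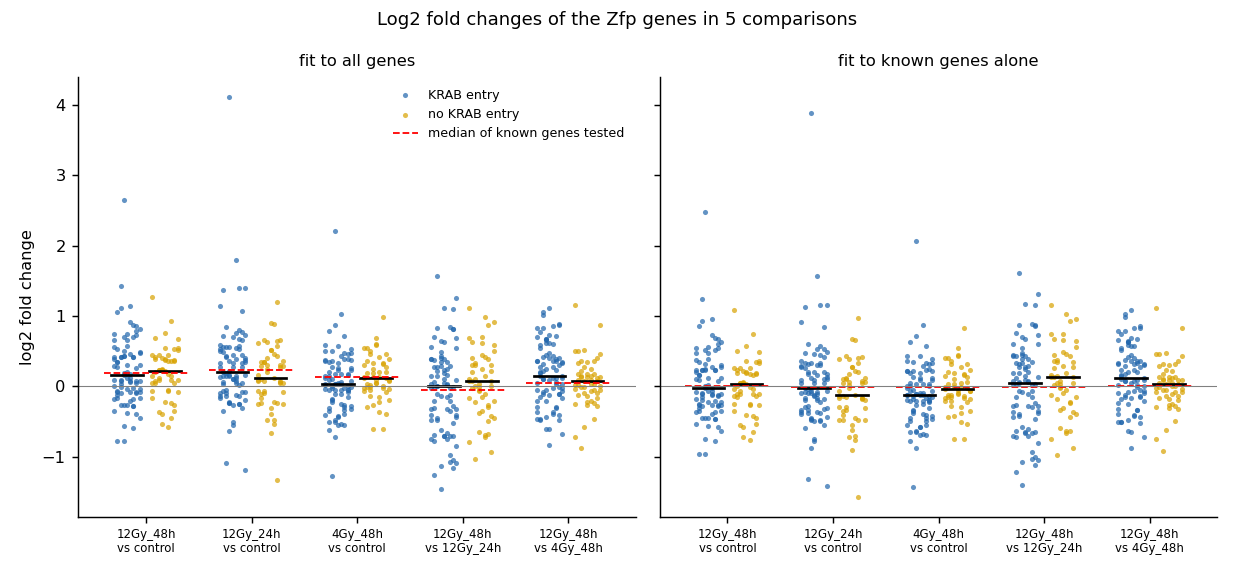
Log2 fold change of each Zfp gene (vertical) in 5 comparisons (horizontal), in the fit to all genes (left) and the fit to known genes alone (right). Blue points have a KRAB entry and yellow points have none, black bars are their medians and red dashed lines are the median of all known genes tested, which lies above 0 against control on the left only. The single point above 3 is Zfp965 in 12Gy_24h.

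At 48 h after 12 Gy, 15 of the 138 genes (10.9%) rose and 4 (2.90%) fell against control. Among all 15086 genes tested 12.9% rose and 20.2% fell, and among the known genes tested 18.2% rose and 3.74% fell. Of the 85 genes with a KRAB entry 12 rose (14.1%), and of the 53 without one 3 rose (5.66%), both below the share of known genes. On known genes alone 5 Zfp genes rose and 6 fell, against 6.76% and 8.04% of those 9816 genes. The same 5 genes, Zfp36, Zfp972, Zfp938, Zfp369 and Zfp579, passed in every one of 12 fits, each library left out included. The 6 that fell on known genes alone took in Zfp318 and Zfp655, which were not called on all genes.

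Zfp36 encodes tristetraprolin, which binds AU-rich elements of messenger RNAs, such as that of tumour necrosis factor, and brings in the machinery that removes their poly(A) tails. Its gene (ENSMUSG00000044786) lies on the reverse strand at chr7:28376784-28380253 (GRCm38) and overlaps Gm44710 on the other strand. It had 42.2, 41.9 and 50.05 CPM in 12Gy_48h, 14.4, 20.4 and 20.4 CPM in 12Gy_24h, 24.97, 15.6 and 15.7 CPM in 4Gy_48h and 16.8, 16.9 and 18.5 CPM in control. The 3 libraries of 12Gy_48h were all far above every other library, and the remaining groups overlapped. Zfp36 rose at 12Gy_48h by 1.27 ± 0.19 (SE; adjusted p = 0.000117) on the log2 scale, while its difference from control was 0.17 in 12Gy_24h (adjusted p = 0.531) and 0.11 in 4Gy_48h (adjusted p = 0.749).

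The promoters of Zfp36, Zfp938 and Zfp972 are shown because these 3 of the 5 genes had the highest levels. They are the 250 bases before the start of the gene in RefSeq (GRCm38.p6), written along the gene's own strand, which is the reverse strand for all 3. That of Zfp36 is at chr7:28379229-28379478, inside the longer gene span that GENCODE gives, and the others are for Zfp938 at chr10:82241281-82241530 and for Zfp972 at chr2:177925651-177925900. Capitals mark, on either strand, the letters GGGCGG of the GC box, the letters CCAAT, the AP-1 type motif TGANTCA and the STAT type motif TTCNNNGAA.
Zfp36: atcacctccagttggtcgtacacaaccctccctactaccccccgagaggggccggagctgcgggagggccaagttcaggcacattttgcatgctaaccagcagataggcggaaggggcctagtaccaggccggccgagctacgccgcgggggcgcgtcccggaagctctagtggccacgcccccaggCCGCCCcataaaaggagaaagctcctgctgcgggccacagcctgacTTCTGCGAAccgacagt
Zfp938: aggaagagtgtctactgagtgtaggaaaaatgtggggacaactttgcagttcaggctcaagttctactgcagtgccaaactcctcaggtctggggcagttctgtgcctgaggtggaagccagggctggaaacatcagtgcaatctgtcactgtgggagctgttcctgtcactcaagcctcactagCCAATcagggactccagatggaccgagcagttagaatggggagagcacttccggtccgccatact
Zfp972: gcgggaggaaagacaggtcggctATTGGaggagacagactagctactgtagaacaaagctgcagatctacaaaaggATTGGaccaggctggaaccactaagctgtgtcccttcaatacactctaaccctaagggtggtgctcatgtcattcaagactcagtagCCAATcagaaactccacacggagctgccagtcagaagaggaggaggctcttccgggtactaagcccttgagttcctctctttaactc
The window of Zfp36 held 1 GC box and 1 STAT type match, that of Zfp938 held 1 CCAAT and that of Zfp972 held 3. Among the promoters of 108 Zfp genes with a RefSeq entry, 55.6% held a GC box, 46.3% held CCAAT, 4.63% the AP-1 type and 11.1% the STAT type. Over all 27025 promoters of that table the shares were 32.9%, 34.5%, 6.87% and 7.18% in the same order. A match describes letters and not a bound site.

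Zfp972 is a KRAB gene of distal chromosome 2 (chr2:177903340-177925613, reverse strand). It had 27.8, 27.9 and 40.4 CPM in 12Gy_48h, 11.6, 9.40 and 7.67 CPM in 12Gy_24h, 11.5, 18.1 and 13.6 CPM in 4Gy_48h and 12.00, 12.7 and 8.73 CPM in control. Every 12Gy_48h library was higher than all 9 others, and the 3 other groups overlapped. The rise was 1.43 ± 0.21 (SE; adjusted p = 0.00011) on the log2 scale. Its transcript shares 47.3% of its 50-base words with other genes, and it overlaps Gm14327 on the opposite strand, which had 28, 23 and 29 reads in 12Gy_48h, against 22, 13 and 0 reads in control. Gm14327 had 32, 44 and 33 reads in 12Gy_24h, where Zfp972 was low, and 19, 31 and 6 reads in 4Gy_48h. Since the strandedness of the counts is not given, reads of these 2 genes cannot be told apart in the overlap.

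Zfp938, a KRAB gene of chromosome 10 (chr10:82224850-82241280, reverse strand), had 41.6, 48.6 and 50.9 CPM in 12Gy_48h, 50.6, 56.1 and 48.9 CPM in 12Gy_24h, 38.99, 39.5 and 31.5 CPM in 4Gy_48h and 14.7, 29.4 and 20.9 CPM in control. All 9 irradiated libraries were above the highest control library. It rose by 1.05 ± 0.18 (SE; adjusted p = 0.000409) at 12Gy_48h, by 1.37 ± 0.18 (SE; adjusted p = 1.13e-05) at 12Gy_24h and by 0.78 ± 0.18 (SE; adjusted p = 0.00777) at 4Gy_48h. On known genes alone the last difference was 0.63 with an adjusted p of 0.0985 and the other 2 calls stood. Under 0.1% of its words (0.0964%) are shared with another gene.

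Zfp369 and Zfp579, both with a KRAB entry, rose at lower levels. Zfp369 had 6.62, 7.25 and 8.02 CPM in 12Gy_48h, against 2.69, 2.38 and 4.50 CPM in control, a difference of 1.11 ± 0.30 (SE; adjusted p = 0.009). Zfp579 had 14.9, 12.6 and 13.5 CPM in 12Gy_48h, against 8.28, 7.15 and 6.35 CPM in control, a difference of 0.81 ± 0.20 (SE; adjusted p = 0.0048). In both genes the groups did not overlap.

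Among the other 10 genes that rose at 12Gy_48h, Zfp53, Zfp687, Zfp263, Zfp944 and Zfp809 had log2 differences of 1.14, 0.93, 0.92, 0.87 and 0.86, and each of the 10 calls ended on known genes alone. Zfp809, known for binding the primer binding site of retroviruses and silencing them in embryonic cells, had 7.72, 9.13 and 5.81 CPM in 12Gy_48h, against 3.10, 3.97 and 4.76 CPM in control (adjusted p = 0.0278, on known genes alone 0.115). The adjusted p of Zfp809 was over 0.05 without 12Gy_48h replicate 1 (0.0623), 12Gy_48h replicate 2 (0.0998), control replicate 1 (0.0881) and control replicate 2 (0.0542). For Zfp53 this held without 12Gy_48h replicate 1 (0.0842), 12Gy_48h replicate 3 (0.0946), control replicate 2 (0.0862) and control replicate 3 (0.0503). For Zfp263 it held without 12Gy_48h replicate 1 (0.0569), 12Gy_48h replicate 2 (0.0656) and control replicate 3 (0.0807), for Zfp944 without 12Gy_48h replicate 2 (0.0516) and control replicate 2 (0.0583) and for Zfp687 without 12Gy_48h replicate 2 (0.0763).

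The genes that fell at 12Gy_48h were Zfp985, Zfp84, Zfp948 and Zfp593, and the calls stood on known genes alone. Zfp84, a KRAB gene, had 7.99, 6.98 and 7.74 CPM in 12Gy_48h, against 12.6, 11.9 and 11.9 CPM in control, a difference of -0.77 ± 0.23 (SE; adjusted p = 0.0159). Control libraries of Zfp84 lay within 1 CPM of each other and above all 9 irradiated ones. Zfp948 had 9.37, 11.01 and 10.2 CPM in 12Gy_48h, against 13.7, 14.3 and 15.6 CPM in control (log2 difference -0.59, SE 0.17, adjusted p = 0.0136) and Zfp985 had 5.51, 4.03 and 6.36 CPM in 12Gy_48h, against 9.11, 7.42 and 8.996 CPM in control (log2 difference -0.77, SE 0.25, adjusted p = 0.024). Zfp593, the counterpart of yeast Bud20, which takes part in export of the large ribosomal subunit, differed by -0.39 (adjusted p = 0.0249) with overlapping values. Each of these calls ended when 1 library was left out. Zfp84 was not called without 12Gy_48h replicate 2 (0.0737), Zfp948 not without 12Gy_48h replicate 1 (0.0611) and control replicate 3 (0.0642), Zfp985 not without 12Gy_48h replicate 1 (0.0567), 12Gy_48h replicate 2 (0.135), control replicate 1 (0.0744) and control replicate 3 (0.0785) and Zfp593 not without 12Gy_48h replicate 2 (0.151), 12Gy_48h replicate 3 (0.0832), control replicate 1 (0.0805) and control replicate 3 (0.105).

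**Figure D3:**
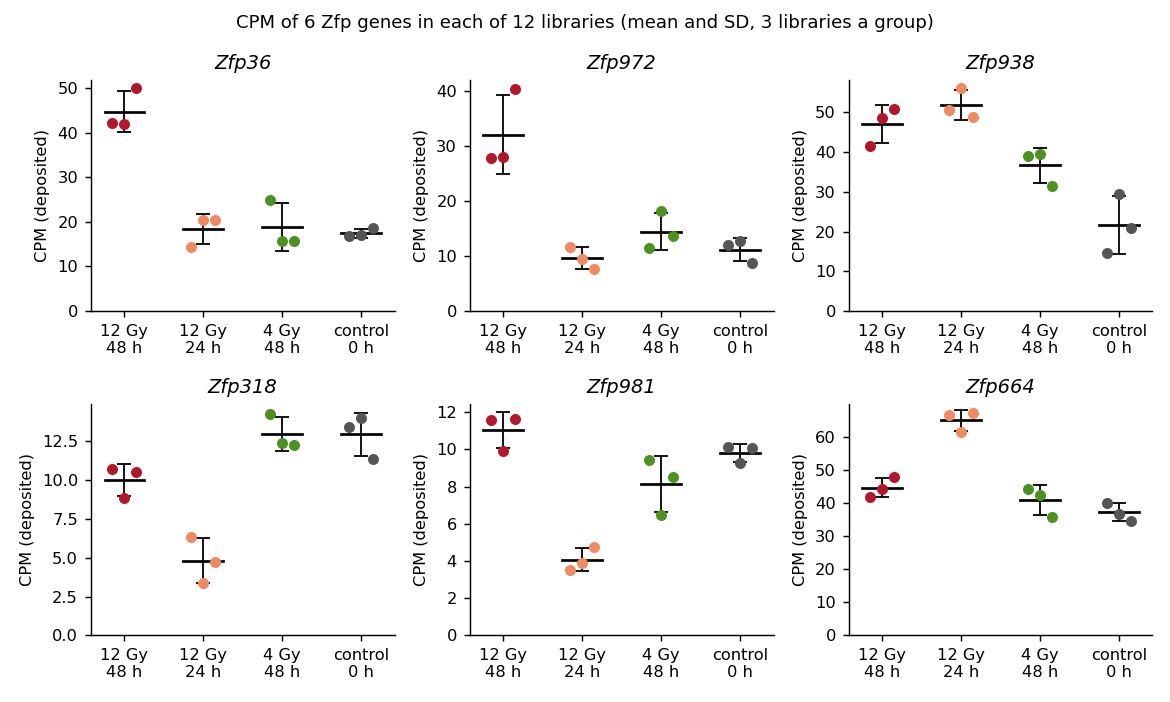
CPM as deposited (vertical, from 0) of 6 Zfp genes in the 3 libraries of each group (points), with the group mean (horizontal bar) and SD (error bar). Zfp36 and Zfp972 are high in 12Gy_48h only, Zfp938 is above control in every irradiated group, Zfp318 and Zfp981 are low and Zfp664 is high in 12Gy_24h.

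At 24 h after 12 Gy, 25 genes (18.1%) rose and 6 (4.35%) fell against control. The shares over all genes tested were 18.5% and 29.4%, and over known genes 26.5% and 3.99%. On known genes alone 11 Zfp genes rose and 9 fell, against 9.15% and 7.91% of genes. The 9 took in Zfp655, Zfp948 and Zfp978, which were not called on all genes. The 11 were Zfp965, Zfp53, Zfp984, Zfp51, Zfp938, Zfp687, Zfp988, Zfp414, Zfp664, Zfp932 and Zfp207, and all of them stood with each library left out. Of the 85 genes with a KRAB entry 17 rose (20.0%), and of the 53 without one 8 rose (15.1%), again below the share of known genes.

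Zfp53 and Zfp51 are KRAB genes in the same run of chromosome 17. Zfp53 (chr17:21488998-21510473, forward strand) had 5.79, 2.95 and 6.08 CPM in 12Gy_48h, 6.83, 7.83 and 6.08 CPM in 12Gy_24h, 4.08, 4.97 and 3.73 CPM in 4Gy_48h and 2.90, 1.06 and 2.12 CPM in control. Control libraries were the 3 lowest, and the 12Gy_24h libraries overlapped those of 12Gy_48h only in their lowest value. Zfp53 rose by 1.80 ± 0.35 (SE; adjusted p = 0.000437) at 12Gy_24h. Zfp51 (chr17:21450374-21465587, forward strand) had 4.41, 4.30 and 3.04 CPM in 12Gy_48h, 7.08, 6.52 and 8.72 CPM in 12Gy_24h, 4.84, 2.73 and 3.20 CPM in 4Gy_48h and 2.90, 2.12 and 3.97 CPM in control, so that 12Gy_24h alone stood apart from the other groups. Its difference was 1.39 ± 0.31 (SE; adjusted p = 0.0012).

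Zfp664, which has no KRAB entry, had the smallest adjusted p among rising genes outside the KRAB group. It had 41.9, 44.3 and 47.8 CPM in 12Gy_48h, 66.5, 61.3 and 67.2 CPM in 12Gy_24h, 44.3, 42.5 and 35.7 CPM in 4Gy_48h and 40.2, 36.8 and 34.7 CPM in control. The 12Gy_24h libraries were all above every other library, and the 4Gy_48h and control values overlapped. It rose by 0.89 ± 0.13 (SE; adjusted p = 2.83e-05). Zfp207, a spindle protein that binds Bub3, had 50.6, 55.6 and 54.7 CPM in 12Gy_24h, against 35.6, 40.8 and 33.1 CPM in control, and it rose by 0.65 ± 0.14 (SE; adjusted p = 0.000939) with groups that did not overlap. Zfp414, which overlaps Gm20507 on the same strand, had 12.6, 12.8 and 14.8 CPM in 12Gy_24h, against 9.52, 5.30 and 7.67 CPM in control (log2 difference 0.90, SE 0.23, adjusted p = 0.00347).

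Zfp687, whose human counterpart is mutated in a form of Paget disease of bone, had 4.13, 6.17 and 4.98 CPM in 12Gy_48h, 5.82, 4.44 and 6.08 CPM in 12Gy_24h, 5.10, 5.22 and 4.53 CPM in 4Gy_48h and 2.69, 2.38 and 2.38 CPM in control. All irradiated libraries were above all control libraries, at levels of a few CPM. It rose by 1.20 ± 0.28 (SE; adjusted p = 0.002) at 12Gy_24h. Zfp687 overlaps Pi4kb on the opposite strand. In 4Gy_48h its difference of 0.98 had an adjusted p of 0.0255, and 0.166 on known genes alone.

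The largest fitted rise, 4.11 ± 0.98 for the KRAB gene Zfp965, cannot be assigned to that gene. Zfp965 had 54, 52 and 68 reads in 12Gy_24h, against 0, 0 and 11 reads in control. All of its 50-base words are shared with Zfp973, a copy outside the 138 genes that was looked at after these values were seen. Zfp973 had 2, 6 and 1 reads in 12Gy_24h, against 25, 35 and 1 reads in control. The sum of both was 56, 58 and 69 reads in 12Gy_24h, against 25, 35 and 12 reads in control. In 12Gy_48h replicate 1, 4Gy_48h replicate 1 and control replicates 1 and 2 all reads of the pair were counted on Zfp973, so libraries of one group differed in which copy was counted.

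The genes that fell at 12Gy_24h were Zfp318, Zfp981, Zfp202, Zfp410, Zfp84 and Zfp740, of which Zfp318, Zfp981 and Zfp202 stood with each library left out. Zfp318, known for the long transcripts through which B cells make surface IgD, had 10.7, 8.86 and 10.5 CPM in 12Gy_48h, 6.32, 3.39 and 4.76 CPM in 12Gy_24h, 14.3, 12.4 and 12.3 CPM in 4Gy_48h and 13.5, 14.04 and 11.4 CPM in control. Its 12Gy_24h libraries were the 3 lowest of the 12, 4Gy_48h and control overlapped, and 12Gy_48h lay between them. Zfp318 fell at 12Gy_24h, with a log2 difference of -1.33 ± 0.23 (SE; adjusted p = 0.000123). On known genes alone Zfp318 was also called lower at 12Gy_48h. Zfp202, a SCAN and KRAB gene whose human counterpart represses lipid metabolism genes, had 6.89, 4.56 and 5.81 CPM in 12Gy_48h, 2.53, 2.87 and 3.17 CPM in 12Gy_24h, 3.82, 1.49 and 2.67 CPM in 4Gy_48h and 5.80, 6.62 and 7.14 CPM in control. It was low in 12Gy_24h and in 4Gy_48h, and its values in 12Gy_48h and control overlapped. The differences were -1.09 ± 0.31 (SE; adjusted p = 0.00784) in 12Gy_24h and -1.28 ± 0.31 (SE; adjusted p = 0.00983) in 4Gy_48h, the last with an adjusted p over 0.05 without 4Gy_48h replicate 2 (0.062). DESeq2 called Zfp318 and Zfp981 at 12Gy_24h but not Zfp202.

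Zfp740, which overlaps Csad on the opposite strand, had 25.04, 19.1 and 20.9 CPM in 12Gy_24h, against 30.6, 39.2 and 29.1 CPM in control (log2 difference -0.51, SE 0.15, adjusted p = 0.0093) and Zfp84 had 6.32, 6.26 and 9.52 CPM in 12Gy_24h, against 12.6, 11.9 and 11.9 CPM in control (log2 difference -0.63, SE 0.23, adjusted p = 0.0287). The adjusted p of Zfp740 was over 0.05 without 12Gy_24h replicate 2 (0.145), 12Gy_24h replicate 3 (0.0734) and control replicate 2 (0.104). That of Zfp84 was over 0.05 without 12Gy_24h replicate 1 (0.127), 12Gy_24h replicate 2 (0.198), control replicate 1 (0.0786), control replicate 2 (0.0646) and control replicate 3 (0.0795). Zfp410, outside the rule for named genes because its values overlapped, differed by -0.67 (adjusted p = 0.0404) and lost its call without 12Gy_24h replicate 1 (0.0568), 12Gy_24h replicate 2 (0.349), control replicate 1 (0.134) and control replicate 2 (0.142).

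At 48 h after 4 Gy, 6 genes (4.35%) rose and 3 (2.17%) fell against control. The shares were 4.53% and 13.0% of all genes tested and 6.21% and 0.877% of known genes. On known genes alone edgeR called 0 Zfp genes higher (7 at an unadjusted p under 0.05) and 1 lower, Zfp202, against 0.754% and 0.57% of genes, and DESeq2 called 1 higher and 1 lower. Zfp687, Zfp746, Zfp938, Zfp984 and Zfp414 rose, and Zfp131 rose with overlapping values.

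Zfp746 encodes PARIS, a KRAB repressor that is degraded through parkin, and it had 5.79, 7.25 and 5.81 CPM in 12Gy_48h, 3.29, 3.13 and 4.23 CPM in 12Gy_24h, 5.86, 10.7 and 7.47 CPM in 4Gy_48h and 3.52, 4.77 and 5.03 CPM in control. In 4Gy_48h replicate 2 it reached its highest level, and the 12Gy_24h libraries overlapped with control. Its difference at 4Gy_48h was 0.87 ± 0.27 (SE; adjusted p = 0.0337), and the adjusted p was over 0.05 without 4Gy_48h replicate 2 (0.188), control replicate 1 (0.0931) and control replicate 2 (0.061). Zfp984 had 8.15, 12.2 and 8.80 CPM in 4Gy_48h, against 5.80, 5.03 and 6.88 CPM in control (log2 difference 0.72, SE 0.24, adjusted p = 0.0459) and was not called without 4Gy_48h replicate 1 (0.0526), 4Gy_48h replicate 2 (0.202), control replicate 1 (0.0733) and control replicate 2 (0.122). For Zfp414, with 13.5, 12.7 and 10.7 CPM in 4Gy_48h, against 9.52, 5.30 and 7.67 CPM in control (log2 difference 0.69, SE 0.23, adjusted p = 0.0472), the call ended without 4Gy_48h replicate 1 (0.141), 4Gy_48h replicate 2 (0.109), control replicate 2 (0.137) and control replicate 3 (0.0795), and for Zfp687 without 4Gy_48h replicate 1 (0.072), 4Gy_48h replicate 2 (0.0772), control replicate 2 (0.062) and control replicate 3 (0.0608).

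Among the genes that fell at 4Gy_48h, Zfp84 had 5.35, 8.20 and 8.54 CPM in 4Gy_48h, against 12.6, 11.9 and 11.9 CPM in control (log2 difference -0.72, SE 0.23, adjusted p = 0.0357). It was not called without 4Gy_48h replicate 1 (0.164), 4Gy_48h replicate 2 (0.0692), control replicate 1 (0.0821), control replicate 2 (0.0713) and control replicate 3 (0.0894). Zfp956, a KRAB gene, had 8.41, 16.6 and 11.5 CPM in 4Gy_48h, against 19.9, 19.6 and 16.9 CPM in control (log2 difference -0.63, SE 0.20, adjusted p = 0.0392) and was not called without 4Gy_48h replicate 1 (0.191), 4Gy_48h replicate 3 (0.0938), control replicate 1 (0.101), control replicate 2 (0.102) and control replicate 3 (0.0721).

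The comparison of 48 h with 24 h after 12 Gy holds the dose fixed, and time is its only labelled difference. In 12Gy_48h 15 genes (10.9%) were higher and 18 (13.0%) lower than in 12Gy_24h, against 20.6% and 11.4% of all genes tested and 9.97% and 15.6% of known genes. On known genes alone the counts were 16 and 13, against 11.1% and 12.6%. The 16 took in Zfp61, which was not called on all genes. The calls that stood in every one of 12 fits were 3 higher genes, Zfp36, Zfp972 and Zfp981, and 11 lower genes, Zfp985, Zfp988, Zfp991, Zfp51, Zfp931, Zfp979, Zfp672, Zfp984, Zfp664, Zfp932 and Zfp593.

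Zfp972 was higher at 48 h than at 24 h by 1.57 ± 0.22 (SE; adjusted p = 7.37e-05), and Zfp36 by 1.11 ± 0.19 (SE; adjusted p = 0.000426), with the values by library given above and no overlap. Zfp113 had 8.54, 10.2 and 8.02 CPM in 12Gy_48h, against 3.29, 3.39 and 4.23 CPM in 12Gy_24h (log2 difference 1.12, SE 0.30, adjusted p = 0.00918) and Zfp9 had 9.10, 12.6 and 8.57 CPM in 12Gy_48h, against 4.81, 3.39 and 4.23 CPM in 12Gy_24h (log2 difference 1.11, SE 0.31, adjusted p = 0.0132). Both are genes with a KRAB entry whose groups did not overlap. The call of Zfp113 ended without 12Gy_24h replicate 2 (0.0513) and 12Gy_48h replicate 2 (0.0531) and that of Zfp9 without 12Gy_24h replicate 2 (0.0809) and 12Gy_48h replicate 2 (0.0887).

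The lower genes at 48 h included 5 of the 10 KRAB genes of 1 run on distal chromosome 4 (50%), and 1 gene of the run was higher (10%). Of known genes 15.6% were lower and 9.97% higher, and of all genes tested 11.4% and 20.6%. Other runs of Zfp genes, on chromosomes 6, 7, 9, 15 and 17, were not summarised as sets. The run on chromosome 4 was chosen with results of these data known, so its shares and medians are a description and no test. The run spans chr4:145868794-147848366 (GRCm38) and holds, in order, Zfp986, Zfp981, Zfp991, Zfp988, Zfp978, Zfp982, Zfp985, Zfp979, Zfp984 and Zfp933. Runs of KRAB zinc finger genes in this region are known in mice for the silencing of endogenous retroviruses. Its median log2 difference between 48 h and 24 h was -0.84, against -0.06 for all known genes tested. Against control the run's medians were -0.14 in 12Gy_48h, 0.53 in 12Gy_24h and 0.20 in 4Gy_48h, where known genes stood at 0.20, 0.23 and 0.14. The run's medians on known genes alone were -0.32, 0.29 and 0.05 against control and -0.79 between 48 h and 24 h.

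Zfp985 had 5.51, 4.03 and 6.36 CPM in 12Gy_48h, 12.6, 8.87 and 12.4 CPM in 12Gy_24h, 7.90, 6.71 and 6.14 CPM in 4Gy_48h and 9.11, 7.42 and 8.996 CPM in control. Its 12Gy_24h values lay above its 12Gy_48h and 4Gy_48h values and overlapped control, and the difference between 48 h and 24 h was -1.27 ± 0.24 (SE; adjusted p = 0.000962). Zfp988 had 4.13, 2.68 and 3.32 CPM in 12Gy_48h, 8.35, 6.26 and 5.55 CPM in 12Gy_24h, 4.59, 4.97 and 3.73 CPM in 4Gy_48h and 3.73, 3.44 and 2.91 CPM in control, with 12Gy_24h above all other groups, and differed by -1.16 ± 0.27 (SE; adjusted p = 0.00448). Zfp991 had 5.51, 5.10 and 5.53 CPM in 12Gy_48h, against 11.6, 6.003 and 13.7 CPM in 12Gy_24h, with 12Gy_24h replicate 2 close to the 12Gy_48h libraries, and differed by -1.13 ± 0.29 (SE; adjusted p = 0.00712).

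Zfp979 had 7.17, 4.56 and 9.95 CPM in 12Gy_48h, against 13.4, 11.5 and 14.8 CPM in 12Gy_24h (log2 difference -1.05, SE 0.28, adjusted p = 0.00906). Zfp984, which overlaps Gm20707 on the same strand, had 6.62, 9.40 and 9.13 CPM in 12Gy_48h, against 12.6, 15.1 and 16.1 CPM in 12Gy_24h (log2 difference -0.98, SE 0.22, adjusted p = 0.00327), and against control it rose by 1.39 at 12Gy_24h (adjusted p = 8.65e-05). In both genes every 12Gy_24h library was above every 12Gy_48h library. Zfp981 went the other way, with 11.6, 9.93 and 11.6 CPM in 12Gy_48h, 3.54, 3.91 and 4.76 CPM in 12Gy_24h, 9.43, 6.46 and 8.54 CPM in 4Gy_48h and 10.1, 9.27 and 10.1 CPM in control. Its 12Gy_24h libraries were the 3 lowest, and it was higher at 48 h than at 24 h by 1.26 ± 0.23 (SE; adjusted p = 0.000782) and lower at 12Gy_24h than in control, with a difference of -1.18 ± 0.23 (SE; adjusted p = 0.000498). The 4 other genes of the run, Zfp986, Zfp978, Zfp982 and Zfp933, passed no test between 48 h and 24 h.

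**Figure D4:**
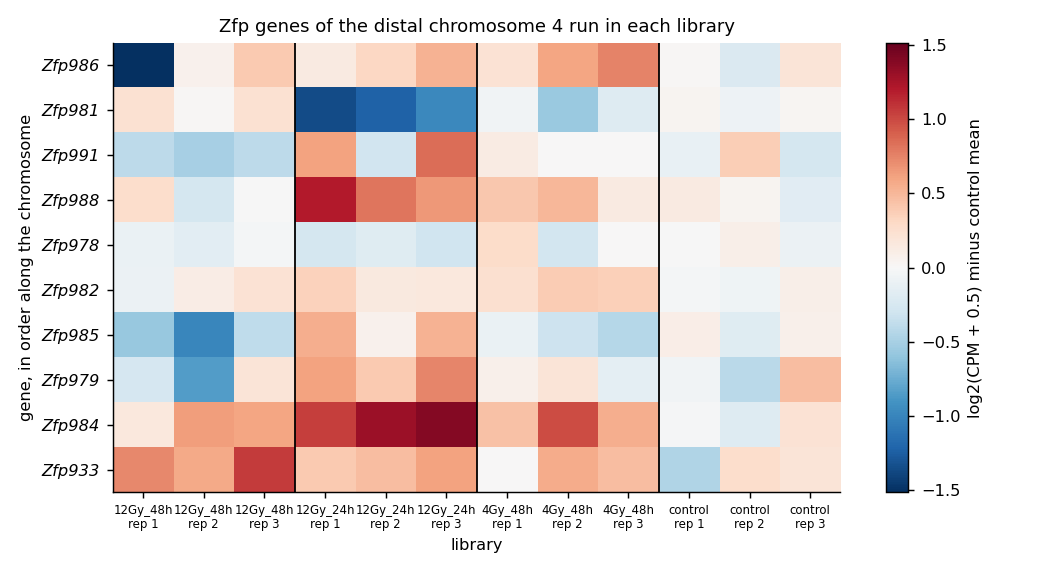
Level of the 10 Zfp genes of the chromosome 4 run (rows, in chromosomal order) in each of the 12 libraries (columns), as log2(CPM + 0.5) minus the mean of the control libraries, red above and blue below control. Zfp988 and Zfp984 are red and Zfp981 is blue in all 3 libraries of 12Gy_24h. The darkest cell, Zfp986 in 12Gy_48h replicate 1, is a single library.

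Several genes of this run resemble other genes, and reads can be split between such copies. Zfp991 shares 86.7% of its 50-base words with other annotated genes, Zfp986 86.4%, Zfp988 68.1%, Zfp984 54.6%, Zfp981 39.9%, Zfp979 24.6% and Zfp985 16.2%. Zfp982 shares 11.9% and Zfp933 1.07%. Of the 5 lower genes, Zfp985 shares the least and Zfp991 the most. Over the 138 genes 67 shared no word, 21 shared over 10% and 7 over 50%. Among the 117 genes that share at most 10%, 12 (10.3%) were higher and 10 (8.55%) lower at 48 h than at 24 h. Of known genes 9.97% were higher and 15.6% lower. On known genes alone 13 (11.1%) were higher and 6 (5.13%) lower, against 11.1% and 12.6% of genes.

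The promoters of the run are shown beside these values because 4 genes that were lower at 48 h and the 1 that was higher have alike sequences. They are the 250 bases before the RefSeq start (GRCm38.p6) along the gene's strand: Zfp985 at chr4:147553027-147553276 and Zfp988 at chr4:147305354-147305603 on the forward strand, Zfp979 at chr4:147642509-147642758 and Zfp984 at chr4:147809789-147810038 on the reverse strand, and Zfp981 at chr4:146514670-146514919 on the forward strand, inside the longer gene that GENCODE gives. Capitals mark the same 4 motifs.
Zfp985: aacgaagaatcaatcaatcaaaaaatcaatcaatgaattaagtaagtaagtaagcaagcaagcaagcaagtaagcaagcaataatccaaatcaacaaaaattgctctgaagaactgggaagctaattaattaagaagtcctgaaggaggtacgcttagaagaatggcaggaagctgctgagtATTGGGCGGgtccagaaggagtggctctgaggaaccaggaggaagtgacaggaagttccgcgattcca
Zfp988: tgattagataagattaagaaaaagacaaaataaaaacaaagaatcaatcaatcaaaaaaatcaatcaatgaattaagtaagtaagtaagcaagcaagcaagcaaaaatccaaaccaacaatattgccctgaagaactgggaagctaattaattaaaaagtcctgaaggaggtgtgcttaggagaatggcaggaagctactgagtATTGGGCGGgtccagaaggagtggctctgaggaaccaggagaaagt
Zfp979: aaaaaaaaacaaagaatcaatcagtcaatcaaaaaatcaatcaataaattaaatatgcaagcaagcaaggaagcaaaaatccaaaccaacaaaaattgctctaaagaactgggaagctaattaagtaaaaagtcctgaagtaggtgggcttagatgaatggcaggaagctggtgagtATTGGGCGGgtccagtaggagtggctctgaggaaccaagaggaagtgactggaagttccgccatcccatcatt
Zfp984: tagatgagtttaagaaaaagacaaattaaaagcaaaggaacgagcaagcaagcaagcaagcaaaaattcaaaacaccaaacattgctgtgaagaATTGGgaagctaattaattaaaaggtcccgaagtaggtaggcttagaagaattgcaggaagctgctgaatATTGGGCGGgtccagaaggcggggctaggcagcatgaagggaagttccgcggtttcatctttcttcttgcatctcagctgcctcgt
Zfp981: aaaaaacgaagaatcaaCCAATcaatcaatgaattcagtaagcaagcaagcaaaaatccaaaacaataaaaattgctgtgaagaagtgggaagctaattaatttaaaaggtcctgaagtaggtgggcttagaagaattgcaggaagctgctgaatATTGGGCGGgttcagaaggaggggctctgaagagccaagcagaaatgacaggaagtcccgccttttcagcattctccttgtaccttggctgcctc
Each of the 5 held ATTGGGCGG, a CCAAT on the other strand that runs into a GC box. Aligned end to end, the 5 were 59.1% to 81.2% identical to each other, while the promoters of Zfp933 and Zfp982 in the same run were 45.9% to 51.9% identical to each other and to the 5. Zfp981, whose level moved in the opposite direction, was 76.0% identical to Zfp984 and 72.2% to Zfp979.

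Outside the run, Zfp51 had 4.41, 4.30 and 3.04 CPM in 12Gy_48h, against 7.08, 6.52 and 8.72 CPM in 12Gy_24h and differed by -1.09 ± 0.30 (SE; adjusted p = 0.0108). Zfp931, a KRAB gene of chromosome 2, had 4.69, 6.44 and 6.36 CPM in 12Gy_48h, 11.9, 11.7 and 9.25 CPM in 12Gy_24h, 6.37, 5.71 and 2.93 CPM in 4Gy_48h and 5.80, 7.15 and 7.14 CPM in control, with 12Gy_24h above the 3 other groups, and differed by -1.08 ± 0.25 (SE; adjusted p = 0.00412). Zfp672, which has no KRAB entry and overlaps another gene on the opposite strand, had 8.27, 5.91 and 9.68 CPM in 12Gy_48h, against 15.4, 15.9 and 11.9 CPM in 12Gy_24h (log2 difference -1.03, SE 0.22, adjusted p = 0.00242). Zfp664 was lower at 48 h, with a difference of -0.72 ± 0.13 (SE; adjusted p = 0.000615), and Zfp932 had 19.6, 19.9 and 22.95 CPM in 12Gy_48h, against 25.8, 34.7 and 29.3 CPM in 12Gy_24h (log2 difference -0.70, SE 0.16, adjusted p = 0.00393). Zfp664 and Zfp672 share no word with another gene, Zfp51 shares 2.85% and Zfp931 16.7%, while Zfp932 shares 45.2%.

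Between the doses at 48 h few Zfp genes differed. In 12Gy_48h 4 (2.90%) were higher and 2 (1.45%) lower than in 4Gy_48h, against 2.19% and 2.49% of all genes tested and 2.79% and 1.55% of known genes, and the counts were the same on known genes alone (background 2.91% and 3.22%). Zfp36 was higher by 1.16 ± 0.19 (SE; adjusted p = 0.00446) and Zfp972 by 1.06 ± 0.21 (SE; adjusted p = 0.0108), and both stood in every fit. Zfp113 had 8.54, 10.2 and 8.02 CPM in 12Gy_48h, against 3.82, 3.97 and 3.73 CPM in 4Gy_48h (log2 difference 1.12, SE 0.29, adjusted p = 0.0383) and Zfp68 had 11.03, 10.5 and 12.2 CPM in 12Gy_48h, against 6.37, 6.71 and 5.33 CPM in 4Gy_48h (log2 difference 0.78, SE 0.20, adjusted p = 0.0346). The lower genes were Zfp672, with 8.27, 5.91 and 9.68 CPM in 12Gy_48h, against 13.3, 16.4 and 11.5 CPM in 4Gy_48h (log2 difference -0.87, SE 0.22, adjusted p = 0.0343), and Zfp593, with 64.5, 52.9 and 56.4 CPM in 12Gy_48h, against 75.4, 84.7 and 83.5 CPM in 4Gy_48h (log2 difference -0.58, SE 0.13, adjusted p = 0.0182). All 6 genes had groups that did not overlap.

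Calls of 4 of these 6 genes ended when 1 library was left out. For Zfp113 the adjusted p was over 0.05 without 12Gy_48h replicate 1 (0.0882), 12Gy_48h replicate 2 (0.17), 12Gy_48h replicate 3 (0.0611), 4Gy_48h replicate 1 (0.085), 4Gy_48h replicate 2 (0.0871) and 4Gy_48h replicate 3 (0.109). For Zfp68 it was so without 12Gy_48h replicate 1 (0.0885), 12Gy_48h replicate 2 (0.103), 12Gy_48h replicate 3 (0.0967), 4Gy_48h replicate 1 (0.0708), 4Gy_48h replicate 2 (0.0648) and 4Gy_48h replicate 3 (0.128). For Zfp672 it was so without 12Gy_48h replicate 1 (0.0916), 12Gy_48h replicate 2 (0.18), 4Gy_48h replicate 1 (0.0707), 4Gy_48h replicate 2 (0.12) and 4Gy_48h replicate 3 (0.0557), and for Zfp593 without 12Gy_48h replicate 2 (0.105), 12Gy_48h replicate 3 (0.0576), 4Gy_48h replicate 2 (0.0507) and 4Gy_48h replicate 3 (0.0702).

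A list of 14 of the genes was drawn up around roles in RNA, ribosomes and ubiquitin: Zfp36, Zfp598, Zfp346, Zfp451, Zfp207, Zfp326, Zfp91, Zfp622, Zfp593, Zfp638, Zfp106, Zfp830, Zfp706 and Zfp330. Against control 1 rose and 1 fell at 12Gy_48h (Zfp36 and Zfp593), 1 rose at 12Gy_24h (Zfp207) and, by edgeR and by DESeq2, 0 were called at 4Gy_48h (1 higher and 1 lower at an unadjusted p under 0.05 with edgeR). A single gene is 7.14% of the list. Of known genes 18.2% were higher and 3.74% lower at 12Gy_48h, and 26.5% were higher at 12Gy_24h. Between 48 h and 24 h, Zfp36, Zfp598 and Zfp346 were higher and Zfp593 was lower. These were 21.4% and 7.14% of the list, against 9.97% and 15.6% of known genes. The list's median log2 difference there was 0.08, against -0.06 for known genes.

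Zfp598 encodes the ubiquitin ligase that marks collided ribosomes. It had 144, 158 and 112 CPM in 12Gy_48h, 86.00, 67.3 and 84.6 CPM in 12Gy_24h, 133, 139 and 112 CPM in 4Gy_48h and 69.96, 128 and 103 CPM in control. Its 12Gy_24h libraries lay below those of 12Gy_48h and 4Gy_48h without overlap, and the control libraries overlapped both. The difference between 48 h and 24 h was 0.63 ± 0.18 (SE; adjusted p = 0.0147), and the adjusted p was over 0.05 without 12Gy_24h replicate 2 (0.138), 12Gy_48h replicate 1 (0.0509) and 12Gy_48h replicate 2 (0.106). Against control it was 0.39 in 12Gy_48h (adjusted p = 0.106) and -0.24 in 12Gy_24h (adjusted p = 0.297).

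Zfp593 had 64.5, 52.9 and 56.4 CPM in 12Gy_48h, 82.5, 79.1 and 79.3 CPM in 12Gy_24h, 75.4, 84.7 and 83.5 CPM in 4Gy_48h and 75.8, 63.8 and 74.6 CPM in control. The 12Gy_48h libraries were the lowest but for overlap with control replicate 2, and the difference between 48 h and 24 h was -0.64 ± 0.13 (SE; adjusted p = 0.00118). Zfp346, a binder of double-stranded RNA whose gene overlaps Gm17617, had 8.54, 11.3 and 8.85 CPM in 12Gy_48h, against 6.32, 4.18 and 6.08 CPM in 12Gy_24h (log2 difference 0.61, SE 0.23, adjusted p = 0.0479), and the adjusted p was over 0.05 when any 1 of the 6 libraries was left out, at 0.0605 to 0.303. Zfp451, a SUMO ligase, averaged 21.8 ± 4.36 CPM in 12Gy_48h, 17.5 ± 2.97 CPM in 12Gy_24h, 18.5 ± 1.89 CPM in 4Gy_48h and 21.7 ± 3.53 CPM in control (SD, n = 3). Zfp326, which links splicing factors to RNA polymerase, averaged 16.2 ± 2.74, 13.5 ± 3.29, 14.96 ± 0.219 and 13.8 ± 2.52 CPM in the same order. Neither passed a test.

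Zfp91, an atypical ubiquitin ligase, averaged 42.8 ± 3.54 CPM in 12Gy_48h, 37.8 ± 8.77 CPM in 12Gy_24h, 30.2 ± 4.19 CPM in 4Gy_48h and 30.4 ± 10.1 CPM in control, and control replicate 2 lay among the 12Gy_48h values. Among transcription factors, Zfp148 differed from control by 0.06 in 12Gy_48h, 0.39 in 12Gy_24h and 0.43 in 4Gy_48h. For Zfp143, which binds promoters at the base of chromatin loops, the differences were -0.24, 0.43 and -0.61. They were 0.40, 0.41 and 0.13 for the corepressor component Zfp217, and 0.35, 0.46 and 0.42 for the repressor Zfp703. None of these 5 genes passed a test, and the smallest adjusted p was 0.0686, for Zfp148 in 12Gy_24h against control.

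Zfp57, the KRAB protein that keeps DNA methylation at imprinted regions, had 38.9, 45.1 and 35.1 CPM in 12Gy_48h, 24.3, 35.5 and 26.97 CPM in 12Gy_24h, 28.3, 35.02 and 31.2 CPM in 4Gy_48h and 25.9, 34.4 and 23.5 CPM in control. The 12Gy_48h libraries were above all control libraries, with a difference of 0.43 (adjusted p = 0.0612, on known genes alone 0.36).

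The partners of KRAB proteins were read from a list of 24 genes, all tested. Against control 8 rose and 1 fell at 12Gy_48h, 9 rose at 12Gy_24h and 3 rose at 4Gy_48h. Those that rose were 33.3%, 37.5% and 12.5% of the list, where 18.2%, 26.5% and 6.21% of known genes rose. With known genes alone, where 6.76%, 9.15% and 0.754% of genes rose, 3 of the list rose and 1 fell, 3 rose and 1 fell, and 0 rose (3 at an unadjusted p under 0.05, and 2 by DESeq2 on all genes). Trim28 differed by 0.50 in 12Gy_48h (adjusted p = 0.0253), 0.59 in 12Gy_24h (0.00662) and 0.64 in 4Gy_48h (0.0122), and these calls ended on known genes alone, with adjusted p of 0.171, 0.121 and 0.125. Setdb1 differed by 0.51, 0.50 and 0.45 with adjusted p of 0.0332, 0.0264 and 0.0841, and of 0.211, 0.312 and 0.417 on known genes alone.

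Calls that stood on known genes alone included the chromatin remodellers Chd3 (0.79 in 12Gy_48h, 0.93 in 12Gy_24h) and Chd4 (0.68 in 12Gy_48h). They also included the histone chaperone Daxx (0.81 in 12Gy_48h), its partner Atrx (1.22 in 12Gy_24h) and the deacetylase Hdac1 (0.77 in 12Gy_24h). The heterochromatin protein gene Cbx1 fell in 12Gy_48h, with a difference of -0.55. The median difference of the 24 genes from control was 0.15 in 12Gy_48h, 0.23 in 12Gy_24h and 0.30 in 4Gy_48h, where that of known genes was 0.20, 0.23 and 0.14. Between 48 h and 24 h after 12 Gy, 4 of the 24 were higher (16.7%) and 6 lower (25%), against 9.97% and 15.6% of known genes. On known genes alone 4 were higher (16.7%) and 5 lower (20.8%), against 11.1% and 12.6% of genes. Between 12 Gy and 4 Gy edgeR on all genes called 0 (2 higher and 3 lower at an unadjusted p under 0.05) and DESeq2 called 1 lower. On known genes alone edgeR called 1 lower (4.17%, against 3.22% of genes), which was Cbx1 (adjusted p = 0.035).

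For the deadenylation pathway that Zfp36 feeds, 20 genes were listed and tested. Against control 3 rose at 12Gy_48h, 3 rose and 1 fell at 12Gy_24h, and 2 rose at 4Gy_48h. Those that rose were 15%, 15% and 10% of the list, below the share of known genes at 12Gy_48h (18.2%) and 12Gy_24h (26.5%) and above it at 4Gy_48h (6.21%). On known genes alone 0 rose at 12Gy_48h (2 at an unadjusted p under 0.05), 1 rose and 1 fell at 12Gy_24h, and 0 rose at 4Gy_48h (2 at an unadjusted p under 0.05), and DESeq2 on all genes called 1, 3 and 2 higher. Zfp36l2, a close relative of Zfp36, differed from control by 0.62 in 12Gy_48h, 1.30 in 12Gy_24h (adjusted p = 0.000102) and 0.55 in 4Gy_48h, and it was lower at 48 h than at 24 h, with a difference of -0.68 (adjusted p = 0.0203). Zfp36l1 passed no test. Cnot1, the scaffold of the deadenylase complex, rose by 0.49 in 12Gy_48h and 0.49 in 4Gy_48h, with adjusted p of 0.137 and 0.239 on known genes alone. Edc4, a decapping scaffold, rose by 0.70 in 12Gy_48h (adjusted p = 0.0214) and the deadenylase gene Cnot8 by 0.53 in 12Gy_24h (adjusted p = 0.0023), with adjusted p of 0.12 and 0.12 on known genes alone. The decapping enzyme gene Dcp2 was lower in 12Gy_24h than in control, with a difference of -0.48 (adjusted p = 0.00758), and higher by 0.78 at 48 h than at 24 h. Elavl1, whose protein binds the same AU-rich elements, rose by 0.46 in 12Gy_24h and 0.67 in 4Gy_48h, and both calls ended on known genes alone (0.408 and 0.146). Between 12 Gy and 4 Gy edgeR and DESeq2 each called 0 of the 20 (1 higher and 1 lower at an unadjusted p under 0.05 with edgeR).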

How the data were processed

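RNA from 12 libraries of irradiated or control MODEK cells was sequenced. Adapters were trimmed with cutadapt 1.9 and reads checked with FastQC, per the submitters' processing notes; the labels name no aligner, read counter, genome build or strandedness. The deposited table by the authors holds whole-number counts per gene, which were tested, and the deposited CPM values equal each count scaled to the library total and were used for values by library. Depth was 3616416 to 4831641 reads, and counting error limits genes near 200 reads over 12 libraries.

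Counts were tested with edgeR 4.0.16 in R 4.3.3 (quasi-likelihood, TMM, filterByExpr, 1 mean per group over 12 libraries, Benjamini-Hochberg over 15086 genes, threshold 0.05). Alternatives were known genes alone, RLE scaling, no filter, DESeq2 1.42.0, the replicate number as a block, and each library left out. The procedure was tested on simulated data. Members, lists and the chromosome 4 run were chosen with earlier results of these data known. In each comparison with control the text names the 8 largest calls in each direction whose values did not overlap, 5 in the other comparisons, the 5 highest means, 3 genes each side of the limit and a fixed list of genes with known roles. Trim28, Setdb1 and up to 4 calls of each partner list were also named. Genes named for passing in every fit, further genes of the chromosome 4 run and calls with overlapping values were chosen after their values were seen. Groups by KRAB protein pattern had been planned; no protein table was used, and the deposited KEGG and Pfam entries served in its place. Positions, overlaps and 50-base words come from the GENCODE annotation of GRCm38 and promoters from RefSeq; the files' own build is not given. A run was at least 4 Zfp genes in a row at most 2 Mb apart.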

Additional observations from a re-analysis of the deposited data

Results flagged for a closer look

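Differences between irradiated groups were singled out where the log2 difference was over 1, the libraries did not overlap and the call held with each library left out. Each is a test of the difference itself. Between 12Gy_48h and 12Gy_24h, Zfp972 differed by 1.57, Zfp981 by 1.26 and Zfp36 by 1.11. In the same comparison Zfp985 differed by -1.27, Zfp988 by -1.16, Zfp991 by -1.13, Zfp51 by -1.09, Zfp931 by -1.08, Zfp979 by -1.05 and Zfp672 by -1.03. Between 12Gy_48h and 4Gy_48h, Zfp36 differed by 1.16 and Zfp972 by 1.06. Of these genes, Zfp991, Zfp988, Zfp972 and Zfp981 share 86.7%, 68.1%, 47.3% and 39.9% of their 50-base words with other genes, and the part of read sharing in their differences was not tested.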

How the results depend on the processing

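No call of a named gene changed direction under the alternatives run, but means and medians of the whole set did. The mean summed Zfp level of 12Gy_24h and 4Gy_48h was above control per library total and below it per reads of known genes. Libraries of both groups overlapped control on either measure. On known genes alone the median Zfp difference was -0.00 in 12Gy_48h, -0.05 in 12Gy_24h and -0.09 in 4Gy_48h, against 0.18, 0.18 and 0.05 on all genes. Against control, the fit to known genes alone called 5 Zfp genes higher and 6 lower at 12Gy_48h and 11 higher and 9 lower at 12Gy_24h. At 4Gy_48h that fit called 0 higher and 1 lower. The median known gene then sat near 0. DESeq2 called 5 higher and 1 lower at 12Gy_48h, 21 higher and 2 lower at 12Gy_24h, and 1 higher and 1 lower at 4Gy_48h. Between 48 h and 24 h it called 5 higher and 15 lower, and between 12 Gy and 4 Gy 2 higher and 2 lower. Without the filter 25 were higher and 1 lower at 12Gy_48h, and 39 higher and 4 lower at 12Gy_24h. At 4Gy_48h 10 were higher and 1 lower without it. The cause of these changes was not tested. With 1 library left out the counts ran from 9 to 19 higher and 1 to 4 lower at 12Gy_48h, 19 to 35 and 3 to 6 at 12Gy_24h, 1 to 6 and 1 to 3 at 4Gy_48h, 4 to 17 and 12 to 20 between 48 h and 24 h, and 2 to 3 and 0 to 1 between the doses. Libraries of the same replicate number correlated at -0.11 to 0.124 in their deviations from group means, and those of different numbers at -0.124 to 0.166. No pairing by number was seen, but deviations from means of only 3 libraries cannot exclude it. With the replicate block 1 gene was lower between the doses, and the other counts were 15 and 4, 24 and 6, 5 and 3, 13 and 14, and 3 higher. Calls lost with 1 library left out included genes of a few CPM and abundant ones such as Zfp598 and Zfp593, and the part of depth was not tested.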
